A study of Homo sapiens with 3 samples.

Results

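The RNA of SND1 carried 245 of the 115227 clusters listed over 3 libraries of MATR3 PAR-CLIP, the knockout control included. A site is counted in every library that lists it. These members are all clusters whose gene name is SND1 and whose annotation source is HAVANA or ENSEMBL. Of the libraries, WT rep1 held 171 of its 87230 clusters there, WT rep2 held 74 of 27155, and the MATR3 knockout (KO) held 0 of 842. SND1 was chosen by its measured number of intronic clusters, so that number is a description and carries no test. The cells were HAP1, a near-haploid line made from the leukaemia line KBM-7, and all 3 libraries share it as their background. WT rep1 and WT rep2, plotted as WT replicate 1 and 2, came from wild-type cells, and the KO cells were a purchased HAP1 line with a MATR3 knockout, given under a single catalogue number. The labels record no other treatment, time point or allele. The labels name anti-FLAG beads for the immunoprecipitation and record no tag on MATR3. The WT replicates are described as independent, but nothing says whether they came from separate cultures, so the spread between them may be technical.

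MATR3 is a nuclear RNA-binding protein with RNA recognition motifs and zinc fingers, known to bind pyrimidine-rich stretches within introns and to influence splicing. PAR-CLIP finds such contacts because a crosslinked 4-thiouridine is read as C in place of T, so a cluster is a pile of overlapping reads with T-to-C changes. SND1, also called Tudor-SN or p100, encodes a protein with staphylococcal nuclease-like domains and a Tudor domain, and it is known as a transcriptional coactivator and as a component of the RNA-induced silencing complex. In RefSeq (GRCh38.p14, gene ID 27044) the gene spans chromosome 7 from 127652194 to 128092593 on the plus strand, a length of 440.4 kb. The submitters' processing notes name hg38, and every SND1 cluster lay inside this span on the plus strand. All 245 were annotated as intronic with HAVANA as the source. No exon table of this build was used, so the intron in which each cluster lies is not given.

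The sites found in both WT libraries are shown first, because they are the positions that do not rest on a single library. They formed 20 pairs, a pair being a cluster of each library with 1 nt or more in common on a strand. The 8 pairs that rank highest by the geometric mean of their reads are printed as RNA-sense DNA letters, 5′ to 3′, over the union of both clusters. Capitals mark the bases covered by both libraries and lower case those covered by 1 library.
Pair 1, chr7:127728304-127728375: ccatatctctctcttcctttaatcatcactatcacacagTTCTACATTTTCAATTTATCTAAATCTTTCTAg
Pair 2, chr7:127788695-127788728: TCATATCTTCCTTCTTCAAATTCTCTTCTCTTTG
Pair 3, chr7:127711635-127711671: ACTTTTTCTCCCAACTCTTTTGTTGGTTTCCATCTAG
Pair 4, chr7:127728784-127728823: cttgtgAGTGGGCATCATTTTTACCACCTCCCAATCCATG
Pair 5, chr7:127736665-127736699: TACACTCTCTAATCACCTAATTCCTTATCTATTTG
Pair 6, chr7:127728552-127728583: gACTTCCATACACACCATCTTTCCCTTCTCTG
Pair 7, chr7:127994092-127994127: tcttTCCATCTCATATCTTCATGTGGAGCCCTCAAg
Pair 8, chr7:127761717-127761762: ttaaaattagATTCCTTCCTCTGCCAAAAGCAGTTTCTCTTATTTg

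Pairs 2, 3 and 5 are all in capitals, since both libraries placed the same start and the same end. Over the 20 pairs, 12 had the same start, 9 had the same end and 6 had both. The ends lay within 1 nt of each other in 16 pairs. In 5 pairs the WT rep2 cluster ended 1 nt later than its partner, as in pair 1, where the added base is the closing G. RNase T1, which was used to trim the RNA, cuts after G. In no pair did the WT rep2 cluster start earlier than its partner, and in 8 it started later. The unions were 29 to 72 nt long, and pyrimidines made up 61.1 to 83.3% of their bases, with a median of 71.2%.

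The deepest shared site lay 76.1 kb from the gene start. Pair 1 had 432 reads in WT rep1 and 73 in WT rep2, and T-to-C changes were carried by 70.6% and 75.3% of those reads. In WT rep1 this cluster had 14 converted positions, the most of any SND1 cluster, against 2 in WT rep2. The cluster was 71 nt long in WT rep1 and 33 nt in WT rep2, with 32 nt in common. Its reads and converted positions were thus counted over stretches of unlike length. Pair 2, at 136.5 kb, had 204 and 120 reads. Pair 3, at 59.5 kb, had 107 and 228 reads, and its cluster was the deepest of WT rep2. The order of depth thus differed between the libraries already among the first 3 pairs.

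Pair 4, at 76.6 kb, had 90 reads in WT rep1 and 129 in WT rep2. Pair 5, at 84.5 kb, had 99 and 112 reads. Pair 6, at 76.4 kb, had 160 and 51 reads. Pairs 1, 4 and 6 lie next to each other, so this short stretch of RNA was found at 3 separate sites in both WT libraries. Pair 7, at 341.9 kb, had 59 and 134 reads, and pair 8, at 109.5 kb, had 51 and 93 reads. Pair 9, at 59.4 kb, had 61 and 51 reads. Pair 10, at 80.2 kb, had 15 and 140 reads, the widest contrast of these 10. Clusters of the remaining 10 pairs had 13 to 72 reads.

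**Figure D1:**
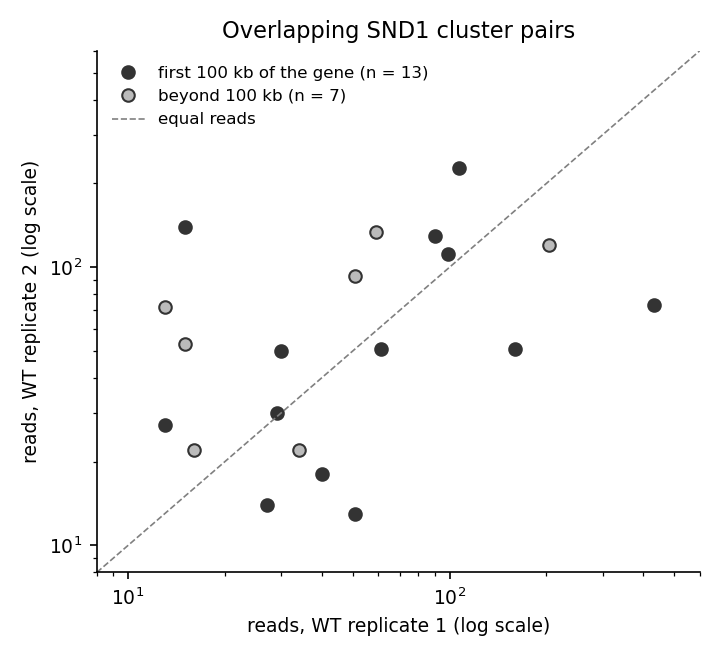
Reads of the 20 overlapping SND1 cluster pairs in WT rep1 (x axis) and WT rep2 (y axis), both on log scales, with the dashed line at equal reads. WT rep2 had more reads in 12 pairs and WT rep1 in 8, and 13 of the pairs lie in the first 100 kb of the gene.

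Neither WT library was the deeper one throughout, since 12 pairs had more reads in WT rep2 and 8 had more in WT rep1. T-to-C changes were carried by a larger share of the reads in WT rep2 in 17 of the 20 pairs. The same order held for the medians over all intronic clusters, at 94.1% in WT rep1 and 97.6% in WT rep2. In WT rep1 the shared SND1 clusters had a lower median share, 77.4%, than the 151 unshared ones, 93.8%. Other intronic clusters of that library differed in the same direction, at 84.3% where shared and 94.4% where not. In WT rep2 the SND1 medians were 96.3% and 98.3%, a narrower gap. Shared clusters were also deeper, with a median of 45.5 reads against 21 in WT rep1 and 52 against 33 in WT rep2, and the part of depth in the share of changed reads was not tested.

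The KO library, the study's negative control, had no cluster within the SND1 span on either strand. The nearest KO clusters on chromosome 7 were 265 kb before the gene, in ZNF800, and 605 kb after it, in RNA5SP242. A library of 842 clusters with the SND1 share of WT rep1, 0.196% (95% Wilson interval 0.169 to 0.228%), would hold 1.65 SND1 clusters. With the share of WT rep2, 0.273% (0.217 to 0.342%), it would hold 2.29. A list of 842 clusters is thus too short to show a difference in share for this gene alone. The KO list also differed in kind, with a median of 243 reads per cluster against 20 and 39 over all clusters of the WT libraries, and why it is short was not tested. When each WT library was limited to its 842 clusters with the most reads, a setting chosen after seeing the data, 3 and 2 SND1 clusters remained. The design of 2 WT libraries and 1 KO library allows no permutation p-value below 0.333, and no test was run.

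The WT libraries averaged 122.5 ± 68.6 SND1 clusters (SD, n = 2), and the SD shows how far they lay apart. As a share of all clusters the mean was 0.234 ± 0.0541% (SD, n = 2), and as a share of cluster reads it was 0.222% in WT rep1 and 0.264% in WT rep2. Per length, the gene had 3.88 clusters per 10 kb in WT rep1 and 1.68 in WT rep2. The clusters covered 1.33% of the gene's length in the first library and 0.521% in the second. By number of intronic clusters SND1 ranked 1 of 7879 genes in WT rep1 and 2 of 5250 in WT rep2, where it tied with HDAC9, and this is what it was chosen for. With at least 3 converted positions per cluster the WT mean was 54.5 clusters, made of 89 in WT rep1 and 20 in WT rep2.

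Reads were spread over many SND1 clusters. WT rep1 held 5927 SND1 reads, with a median of 22 per cluster (quartiles 13 and 40) and a range of 5 to 432. WT rep2 held 4110 reads, with a median of 39 (18.3 and 79.3) and a range of 5 to 228. These medians were close to those of all intronic clusters, 20 and 38. The reads reduced to 766 distinct sequences in WT rep1 and 246 in WT rep2, or 7.74 and 16.7 reads per distinct sequence. The second library thus gave more copies of fewer sequences, and intervals from read counts cover counting error only.

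Clusters lay along almost the whole of the gene but not evenly. In WT rep1 the first SND1 cluster began at position 127652591, with its midpoint 0.415 kb from the gene start and 15 reads, and the last ended at 128084249, 8.34 kb before the gene end, with 13 reads. In WT rep2 the first lay at 1.26 kb with 16 reads and the last ended 24.9 kb before the gene end with 81 reads. The median distance from the gene start was 115 kb in WT rep1 and 135 kb in WT rep2, a mean of 125 ± 14.3 kb (SD, n = 2). Both medians lie well before the middle of the gene. The first 50% of the gene's length held 123 of 171 clusters (71.9%) in WT rep1 and 50 of 74 (67.6%) in WT rep2.

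**Figure D2:**
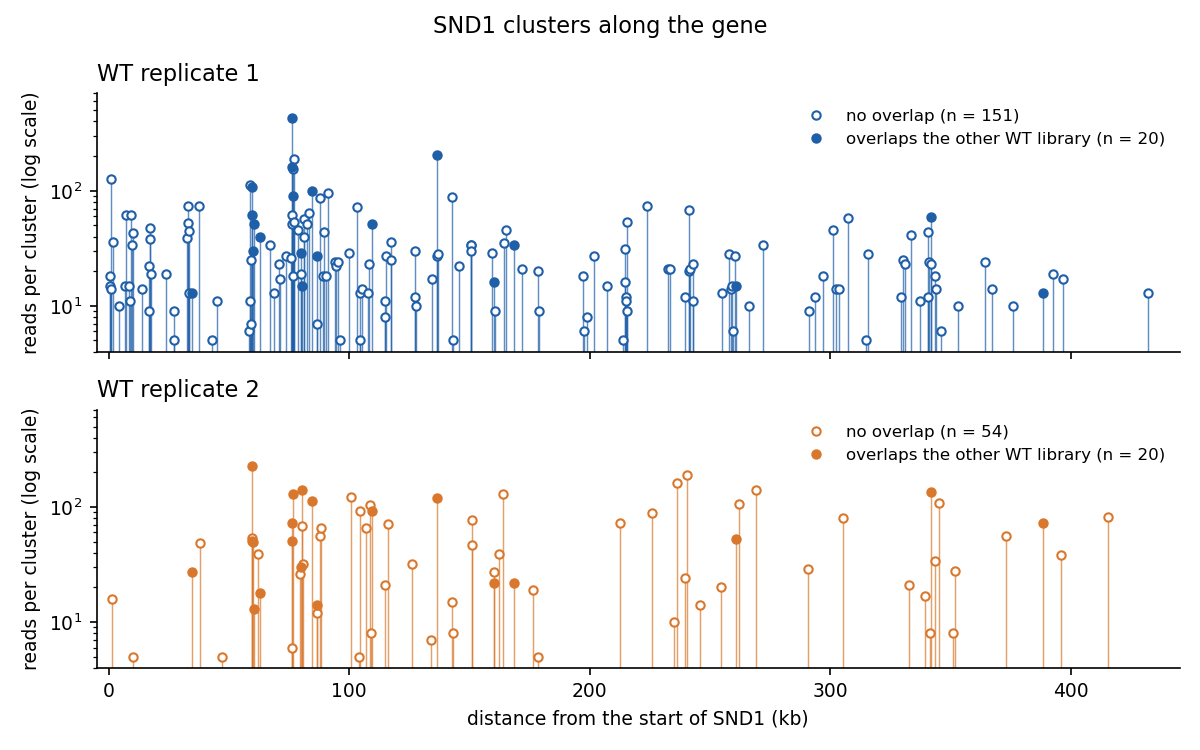
Each SND1 cluster as a point at its distance from the gene start (x axis, kb) and its reads (y axis, log scale), with WT rep1 above and WT rep2 below; filled points overlap a cluster of the other WT library. Points crowd between 50 and 100 kb in both panels, where 12 of the 20 shared sites lie.

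With the gene divided into 10 equal parts, the part after the opening one held most clusters in both libraries, with 38 in WT rep1 and 22 in WT rep2. The closing part held 2 and 1. The libraries differed most in the opening part, which held 30 clusters in WT rep1 and 4 in WT rep2. In windows of 20 kb the densest by the WT mean was that from 80 to 100 kb, with 19 clusters in WT rep1 and 9 in WT rep2, or 14.0 ± 7.07 (SD, n = 2). The window before it, from 60 to 80 kb, had 19 and 8. The opening window, from 0 to 20 kb, had 19 clusters with 609 reads in WT rep1 and 2 clusters with 21 reads in WT rep2, so this start of the gene was well covered in 1 library only. Across the 22 full windows the WT libraries' numbers of clusters correlated with rho 0.691 (Spearman) and r 0.660 (Pearson). Neighbouring windows share a transcript, so this is a description.

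**Figure D3:**
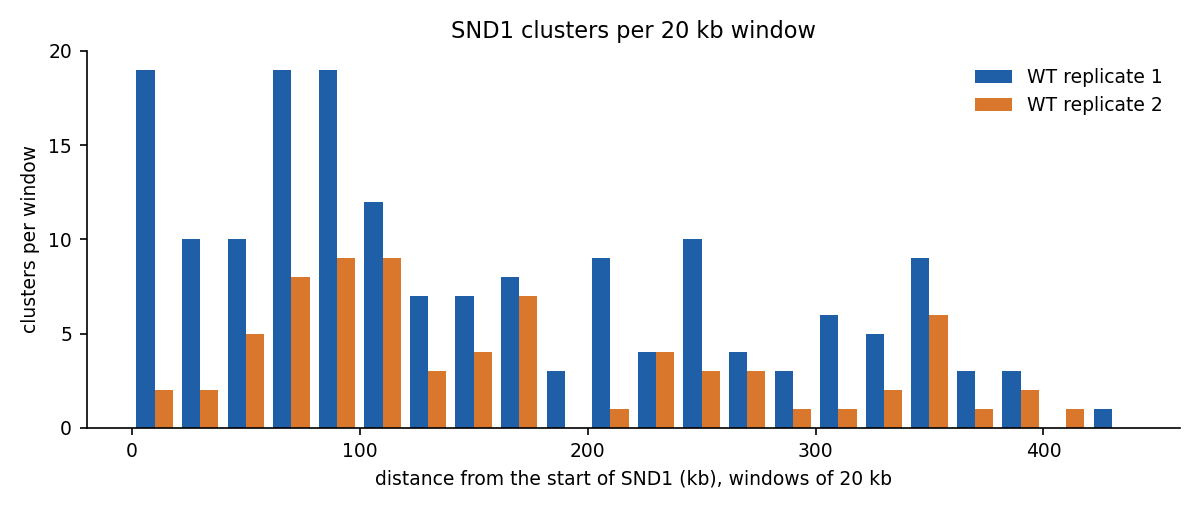
Number of SND1 clusters in each of 22 windows of 20 kb (x axis, distance from the gene start) in WT rep1 and WT rep2. The window from 80 to 100 kb is the densest by the mean, with 19 and 9 clusters, and the opening window holds 19 and 2.

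The start of the gene held a larger share of the reads than of the clusters in the first library only. The first 100 kb, a stretch chosen after the values were seen, held 77 clusters (45.0%) and 60.5% of the SND1 reads in WT rep1. In WT rep2 it held 26 clusters (35.1%) and 33.3% of the reads. Cluster density there was 7.70 per 10 kb in WT rep1 and 2.60 in WT rep2, against 2.76 and 1.41 in the rest of the gene. When each cluster was weighted by its reads, the median distance from the gene start was 81.0 kb in WT rep1 and 137 kb in WT rep2.

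To see whether this position is usual, SND1 was set beside other genes of at least 200 kb with at least 20 intronic clusters in each WT library. There were 75 such genes, SND1 included. The median cluster of SND1 lay at 0.261 of the gene's length in WT rep1 and 0.307 in WT rep2. The medians over the 75 genes were 0.357 and 0.352, with 16 genes lower than SND1 in the first library and 23 in the second. The lower quartiles of these genes were 0.274 and 0.291, so SND1 lay just below the quartile in WT rep1 and just above it in WT rep2. It had more clusters per 10 kb than 72 of the other genes in WT rep1 and 68 in WT rep2, a measure close to what it was picked for.

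Neighbouring clusters were often close together. The median gap from the end of a cluster to the next start was 951.5 nt in WT rep1 (quartiles 193 and 3131) and 2546 nt in WT rep2 (527 and 8096). Gaps shrink as more clusters are listed, so the libraries are given side by side and not compared. The longest gaps were 35.0 kb in WT rep1, from 397 to 432 kb, and 34.2 kb in WT rep2, from 178 to 213 kb. In WT rep1, 28 of 170 gaps were 100 nt or shorter and 61 were 500 nt or shorter. In WT rep2 the counts were 7 and 18 of 73. With at least 3 converted positions per cluster the median gaps were 1669 and 7436 nt.

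The ratio of the median gap to the mean gap, which is lower where clusters bunch, was 0.380 in WT rep1 and 0.451 in WT rep2. The medians over the 75 long genes were 0.371 and 0.460. Bunching in SND1 was thus near the middle of these genes, with 42 and 33 genes below it. Joining clusters within 50 nt of each other left 157 sites in WT rep1 and 70 in WT rep2.

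The tightest bunch, found by scanning for the most clusters within 2000 nt after the data were seen, held 10 clusters of WT rep1 over 1507 nt. It began 75.7 kb from the gene start, at chr7:127727888-127729394, and held 1236 reads, 20.9% of the library's SND1 reads. Reads per cluster there ran from 18 to 432, and 4 of the 5 deepest SND1 clusters of WT rep1 were among them. WT rep2 had 4 clusters in the same span, with 73, 6, 51 and 129 reads, and 3 of them overlapped clusters of WT rep1. The most clusters that WT rep2 had within 2000 nt was 5, found in 2 stretches. The one with its first cluster 59.4 kb from the gene start spanned 1167 nt and held 396 reads, and the other lay at chr7:127731562-127733115, around pair 10.

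Several deep clusters had no partner in the other WT library. They are printed in lower case because of the 5 deepest clusters per library, 2 of WT rep1 and 3 of WT rep2 were unshared; printing them was decided after the values were seen.
WT rep1, chr7:127729363-127729394: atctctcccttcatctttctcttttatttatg
WT rep1, chr7:127728971-127729013: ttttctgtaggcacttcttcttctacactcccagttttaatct
WT rep2, chr7:127892438-127892473: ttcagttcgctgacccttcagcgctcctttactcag
WT rep2, chr7:127888541-127888576: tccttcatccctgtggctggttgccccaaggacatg
WT rep2, chr7:127921338-127921376: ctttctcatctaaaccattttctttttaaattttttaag

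The unshared clusters of WT rep1 belong to the bunch described above. The one at 77.2 kb had 187 reads and lay 572 nt, midpoint to midpoint, from the nearest WT rep2 cluster, and that at 76.8 kb had 156 reads and lay 186 nt away. The unshared clusters of WT rep2 lay farther along the gene, at 240, 236 and 269 kb, with 188, 162 and 139 reads. The nearest WT rep1 clusters were 664, 2788 and 2857 nt away. In the cluster at 269 kb 25.2% of the reads carried a T-to-C change, far below the SND1 median of its library, 97.5%.

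Of the 74 SND1 clusters of WT rep2, 20 had a partner in WT rep1, a share of 27.0% (95% Wilson interval 18.2 to 38.1%). Among all intronic clusters of that library 20.3% did so, a value inside the interval. In the other direction 20 of 171 SND1 clusters, 11.7% (7.70 to 17.4%), overlapped WT rep2, against 6.19% of all intronic clusters, which lies below the interval. Clusters of 1 gene share their transcript, so these intervals cover counting error only and no test was run. SND1 was picked for its many clusters, while the background includes genes with few or no clusters in the other library. The part of that choice in the overlap was not tested. Among the 75 long genes the medians were 17.9% for WT rep2 and 7.41% for WT rep1, the upper quartiles were 24.0% and 11.03%, and 14 and 15 genes lay above SND1.

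**Figure D4:**
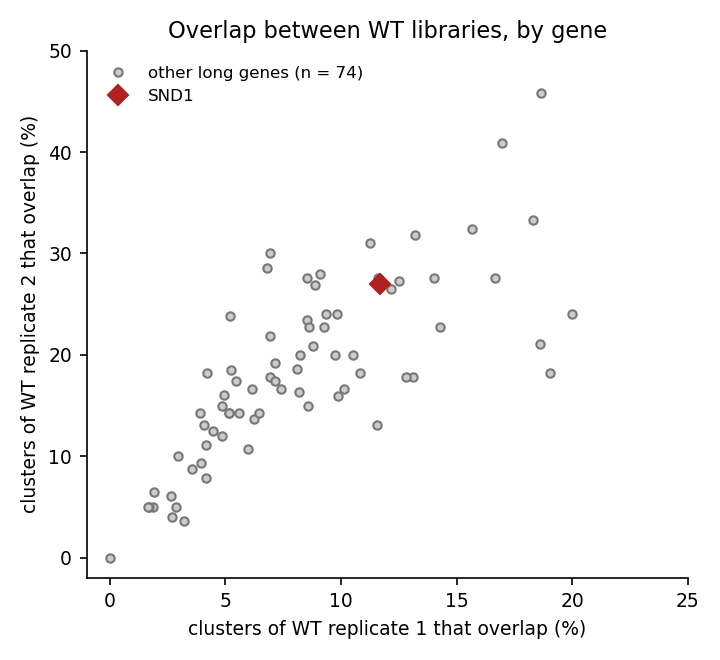
Share of a gene's intronic clusters that overlap a cluster of the other WT library, for clusters of WT rep1 (x axis, %) and of WT rep2 (y axis, %), over 75 genes of at least 200 kb. SND1, the diamond, lies at 11.7% and 27.0%, above the medians of 7.41% and 17.9% and inside the cloud.

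Overlap went with depth in SND1 as in introns generally. Of the WT rep2 clusters with 100 or more reads 6 of 14 were shared, and of those with 5 to 19 reads 3 of 20. For all intronic clusters the shares in these classes were 31.2% and 12.8%. In WT rep1, 4 of 8 clusters with 100 or more reads were shared and 5 of 78 with 5 to 19 reads, beside 29.8% and 3.42% of intronic clusters. With counts this small the SND1 intervals are wide, for example 21.4 to 67.4% for the 14 deepest clusters of WT rep2.

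Of the 20 shared sites 12 lay between 50 and 100 kb from the gene start, and the opening 20 kb held none. The cut at 100 kb used next was chosen after the values were seen. In the first 100 kb 13 of 26 WT rep2 clusters were shared (32.1 to 67.9%), and beyond it 7 of 48, 14.6% (7.25 to 27.2%). For WT rep1 the shares were 16.9% (10.1 to 26.8%) and 7.45% (3.65 to 14.6%), with intervals that overlap. Both the density of WT rep1 clusters, given above, and their median reads, 29 against 18, were higher in the first 100 kb, and their part in the overlap was not tested. Counting nearness in place of overlap, 30 of 74 WT rep2 midpoints lay within 100 nt of a WT rep1 midpoint and 56 within 1000 nt, with a median distance of 263 nt.

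The bases of the SND1 clusters were those of a pyrimidine-rich RNA. The share of T was 39.0% in WT rep1 and 39.7% in WT rep2, a mean of 39.3 ± 0.491% (SD, n = 2). Other intronic clusters held more T, 40.4% and 42.1%. C was higher in SND1, at 28.97% and 28.98%, than in other introns, at 27.7% and 26.8%. Pyrimidines together made up 67.9% and 68.6%, beside 68.1% and 68.9% in other intronic clusters, so the sum differed by under 1 percentage point. G was 11.04% and 10.5%, beside 9.99% and 9.77%. Among the 75 long genes 6 had a lower T share than SND1 in WT rep1 and 8 in WT rep2, while 8 and 6 had a higher C share.

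**Figure D5:**
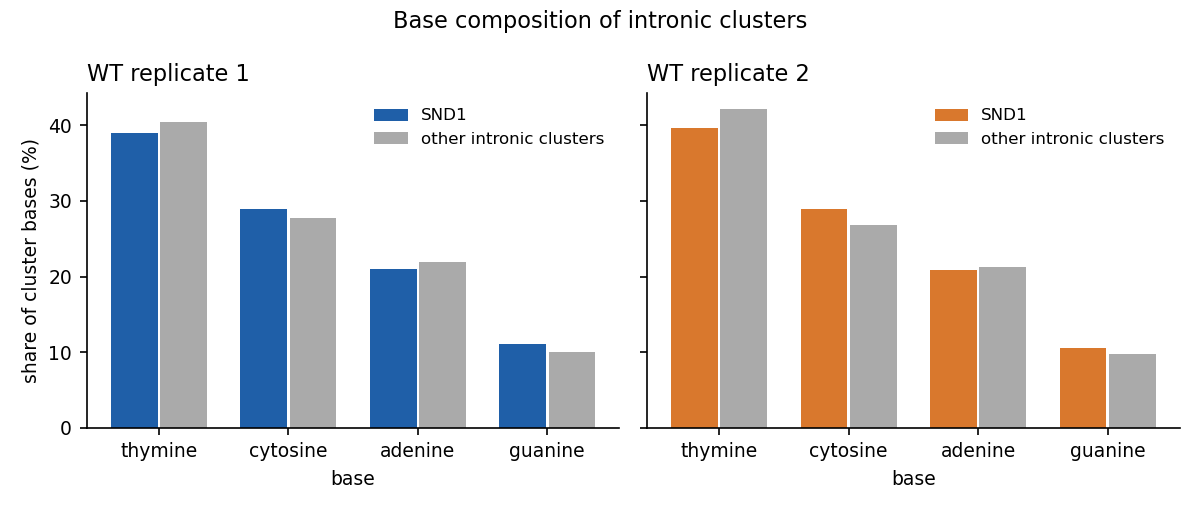
Share of each base (y axis, %) among the bases of SND1 clusters (coloured) and of all other intronic clusters (grey) in WT rep1 and WT rep2. The thymine bars of SND1 are lower than the grey ones, at 39.0 against 40.4% and 39.7 against 42.1%, and the cytosine bars are higher.

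Shared sites were richer in T than the rest of the SND1 clusters. In WT rep1 T made up 42.3% of the bases of shared clusters and 38.5% of unshared ones, and in WT rep2 42.6% and 38.5%. Other intronic clusters differed in the same direction, 42.7% against 40.2% and 43.6% against 41.7%. The share of pyrimidines in single SND1 clusters ran from 17.9 to 96.7% in WT rep1 and from 47.2 to 95.7% in WT rep2. At or below 50% were 9 and 4 clusters, 5.26% and 5.41%, beside 6.28% and 5.34% of other intronic clusters. None of these SND1 clusters was shared. Of other shared intronic clusters 1.64% and 1.54% were that low, so none among 20 is near that share. The extremes are printed to show this range, and were chosen after their values were seen.
WT rep1, lowest pyrimidine share, chr7:127733149-127733176: attaatataagggagtgaggaaagaaga
WT rep1, highest pyrimidine share, chr7:127911508-127911537: cctcttttctctctctctttctctcttttg
WT rep2, lowest pyrimidine share, chr7:127759286-127759321: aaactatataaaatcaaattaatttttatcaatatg
WT rep2, highest pyrimidine share, chr7:128003409-128003431: cttctcccctttcccttctcttg

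The lowest cluster of WT rep1 consists mostly of purines and holds no C, had 40 reads from 2 distinct sequences, and carried T-to-C changes in all of them. The lowest of WT rep2 is rich in A and had 65 reads. Both clusters of highest pyrimidine share end in their only G, and they had 15 and 8 reads, so the purest pyrimidine tracts were not the deepest sites.

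Words of 5 bases were counted on the RNA strand as given, where neighbouring words such as TTTCT and TTCTT may overlap. ATCTT, with U for T in RNA, is known as a word that MATR3 binds. It was found in 26 of 171 SND1 clusters in WT rep1, 15.2% (10.6 to 21.3%), and in 15 of 74 in WT rep2, 20.3% (12.7 to 30.8%). All intronic clusters held it in 14.8% and 15.9%, inside both intervals. TTCTT was in 24.0% and 24.3% of SND1 clusters and in 30.6% and 32.0% of all intronic clusters. TTTCT was in 28.1% and 27.0%, beside 32.4% and 33.1%, and CTTTC in 22.8% and 17.6%, beside 22.5% and 23.3%. The intronic share lay inside the SND1 interval for each of these 4 words in both libraries, nearest to its edge for TTCTT (18.2 to 30.9% and 16.0 to 35.2%). GTGGC was in 2 and 1 clusters, 1.17% and 1.35%, beside 1.53% and 1.24% of intronic clusters. GGAGA was in 5 clusters of WT rep1, 2.92% (1.26 to 6.66%) beside 1.102% of intronic clusters. In WT rep2 it was in 1 cluster, 1.35% (0.239 to 7.27%) beside 0.873%.

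Of the 20 shared sites 14 held at least 1 of the 4 pyrimidine words. ATCTT was in 6 and TTTCT in 8, and no shared site held GTGGC or GGAGA. The shares of these words over other shared intronic clusters were not taken, so the counts do not set the shared SND1 sites apart. GTGGC and GGAGA were rare in all intronic clusters, as given above, so their absence from 20 sites says nothing about sharing. Among the printed pairs, ATCTT stands in the capitals of pairs 1, 2, 6 and 7. A run of 12 bases was shared by 6 pairs of non-overlapping SND1 clusters in WT rep1 and by 4 pairs in WT rep2. These pairs involved 12 of 171 and 7 of 74 clusters. The same count over other intronic clusters was not taken. A word is a description of the letters in the cluster and not a mapped contact.

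Most clusters ended in G. The last base was G in 116 of 171 SND1 clusters of WT rep1, 67.8%, and in 68 of 74 of WT rep2, 91.9%. Intronic clusters on the plus strand gave 67.6% and 93.3%. The median share of reads that end in G was 92.3% and 100%, beside 97.1% and 100% on the plus strand. The minus strand was not used for this comparison, because the deposited share did not match the last letters of the sequences there. Clusters without a G before the last base made up 22.8% in WT rep1 and 39.2% in WT rep2, below the 34.9% and 43.5% of plus-strand intronic clusters. Median cluster length was 33 and 31 nt, and the longest cluster had 101 and 53 nt.

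Conversion in SND1 was close to that of other introns. Of the T positions read in its clusters 7.79% (95% Wilson interval 7.61 to 7.99%) were converted in WT rep1 and 7.92% (7.69 to 8.15%) in WT rep2, a mean of 7.86 ± 0.0864% (SD, n = 2). The reads came from 766 and 246 distinct sequences, so they are not independent. These intervals cover counting error only and are too narrow. The same pooled share in other intronic clusters was 8.03% and 7.77%, above SND1 in 1 library and below it in the other. The median over single clusters was higher in SND1 in both libraries. It was 8.89% against 8.58% of other intronic clusters in WT rep1, and 9.06% against 8.44% in WT rep2. Exactly 2 converted positions were found in 48.0% of SND1 clusters in WT rep1 and 73.0% in WT rep2, beside 58.7% and 74.7% of other intronic clusters. No cluster in the tables had fewer than 2, so these values describe a selected set.

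The genes whose numbers of intronic clusters were most like those of SND1 were HDAC9, DLGAP1, CMSS1, PPFIA2 and ANKRD17. Likeness was the summed absolute difference of log2(clusters + 1) over the 3 libraries, and it ran from 0.22 for HDAC9 to 1.52 for ANKRD17. HDAC9, a class IIa histone deacetylase, had 147 and 74 intronic clusters, or 1.61 and 0.808 per 10 kb. DLGAP1, a scaffold protein of the postsynaptic density, had 129 and 47, and PPFIA2, a liprin, had 147 and 35. CMSS1 had 107 and 49, or 2.94 and 1.35 per 10 kb. ANKRD17, an ankyrin repeat protein, had 109 and 40, and at 5.88 and 2.16 per 10 kb it was denser than SND1. None of the 5 had an intronic KO cluster. Of their WT rep2 clusters 23.4 to 45.0% were shared, beside 27.0% in SND1.

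Of 9 genes next to or inside SND1, 2 had clusters in both WT libraries, 22.2%, beside 26.2% of all RefSeq protein-coding genes. SND1-IT1, among the 9, is a long noncoding RNA gene, while that background holds protein-coding genes only. The other 7 had no cluster in any library: LRRC4, SND1-IT1, PAX4, FSCN3, ARF5, LEP and PRRT4. LRRC4, a synaptic adhesion protein gene, lies inside SND1 on the minus strand 375 to 380 kb from its start. A single plus-strand cluster of WT rep1, named SND1 in the table, fell within the LRRC4 span and another within that of SND1-IT1, a transcript on the plus strand, so the source of the latter is uncertain. Downstream of SND1, RBM28, a nucleolar RNA-binding protein gene of 46.2 kb, had 25 and 7 clusters of any annotation, 13 and 5 of them intronic, or 5.41 and 1.51 of any annotation per 10 kb. GCC1, a golgin gene upstream, had 2 and 1, none intronic. Neither had a KO cluster. No cluster under another gene's name lay within the SND1 span or 50 kb to either side in any library.

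Among 33 genes of RNA silencing, Tudor domain proteins and SND1 partners, 19 had clusters in both WT libraries, 57.6%, beside 26.2% of all RefSeq protein-coding genes. The median over the list was 5.0 clusters (mean of the WT libraries per gene) against 0 over all protein-coding genes. TNRC6A, a scaffold that joins Argonaute proteins to deadenylases, had 54 and 22 clusters, or 2.50 and 1.02 per 10 kb. DGCR8, the partner of Drosha in microRNA processing, had 39 and 16 clusters, and at 12.3 and 5.06 per 10 kb it was denser than SND1 in both libraries. TNRC6B had 39 and 11, DROSHA 35 and 13, and AGO3 29 and 12 clusters. KO had a cluster in 2 genes of the list, 1 in AGO3 with 499 reads and 1 in AGO2 with 662 reads. The share of all protein-coding genes with a KO cluster was not taken, so this count does not set the list apart. In 7 genes no WT library had a cluster, among them TDRD1, TDRD6 and TDRD9, Tudor genes known from the germ line. Other Tudor genes of the list, TDRD5 and TDRD7, had 1 and 3 clusters in WT rep1 and none in WT rep2. The share of all protein-coding genes without a WT cluster was not taken. The background of all protein-coding genes was not matched to the list for gene length, which ran from 5.51 kb (TARBP2) to 291 kb (TNRC6B). The part of length in the higher share was not tested. RNA abundance was not measured in these libraries, so clusters per transcript are not given for any gene.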

How the data were processed

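PAR-CLIP cluster tables of 2 WT and 1 KO libraries were used. Each library has a table of its own. The deposited counts of reads, distinct reads, converted positions and T events are raw, per the file headers and values, and the deposited fraction columns give shares of a cluster's reads. The submitters' processing notes list cutadapt 1.8.3, Bowtie 1.1.2, hg38 and GRCh38.p5. The cluster caller and its filters are not given in the sources used here; no cluster had fewer than 5 reads or 2 converted positions, and how such limits bear on each library was not tested. Library depth is unknown, as the tables hold reads within clusters only.

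The members, lists and tests were chosen with earlier results of these data known. Overlap meant at least 1 nt on the same strand. Positions were counted from the RefSeq gene start. Shares carry 95% Wilson intervals, and WT values are means with SD. Clusters named are the overlapping pairs, the 5 deepest per library, the first and last, and the densest window of 20 kb; genes named are the 5 most alike in cluster number, 9 neighbours and 33 silencing and Tudor genes, of which those with clusters in both WT libraries were named up to 5. AGO2, TDRD1, TDRD5, TDRD6, TDRD7 and TDRD9 fall outside this rule, as do the clusters of extreme pyrimidine share and the bunches within 2000 nt. All of these were chosen after their values were seen. Python 3.11.15, numpy 2.4.6, pandas 2.3.3, scipy 1.17.1 and matplotlib 3.10.9 were used, and overlap and gap procedures were tested on simulated data. Alternatives are given in the closing section.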

Additional observations from a re-analysis of the deposited data

How the results depend on the processing

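Of 39 alternatives over 7 results, 31 stayed within the spread of the WT libraries, the interval of the share, or 1.5 times the count. Some of them could not have moved. A result judged by the WT spread always stays within it when 1 of the 2 libraries is left out. Keeping HAVANA clusters only changed nothing, because all SND1 clusters had that source. Such alternatives say nothing about how firm a result is. All 5 alternatives for the shared SND1 clusters stayed within the interval of the share, between 20 and 32.4%. With the same number of SND1 clusters from each library the share was 20.3%. The share of all intronic clusters was not cut down in this way, so it is no background for that value. A minimum of 3 converted positions per cluster lowered the mean number of SND1 clusters to 54.5, raised the mean median gap to 4552.5 nt, and gave a T share of 40.7% and a conversion of 7.15%; fewer clusters pass it. The number of clusters ran from 74 without WT replicate 1 to 171 without WT replicate 2. As many clusters as in KO, chosen after seeing the data, gave an SND1 share of 0.297%. Weighting by reads gave a median position of 109 kb. The median over clusters gave a conversion of 8.98%, beside 8.51% in other intronic clusters. The cause of these shifts was not tested. No paired analysis was possible because the KO library carries no replicate number and no result comes from a test. The short KO list limits the comparison with KO, since 842 clusters at the WT share would hold 1.65 to 2.29 SND1 clusters; sequencing depth is unknown.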
